A study of Sus scrofa with 5 samples.

Results

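The let-7 family was followed across exosomes of 5 pig body fluids. The family was taken as 9 mature miRNA names, chosen by name alone: ssc-let-7a, ssc-let-7c, ssc-let-7d-5p, ssc-let-7d-3p, ssc-let-7e, ssc-let-7f, ssc-let-7g, ssc-let-7i and ssc-miR-98 (the pig prefix ssc- is left out below). They are 9 of the 411 names in the authors' deposited tables. All 9 were listed above 0 in at least 1 fluid and 8 in all 5, the exception being let-7d-3p in urine. Of the 411 names, 237 were listed above 0 in any fluid and 67 in all 5.

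The samples were exosomes, small vesicles that cells shed into body fluids, from bile, semen, urine, serum and plasma of pigs of the Rongchang breed, aged 180 days. Breed and age were the same for all 5 groups, and no treatment or genetic change is given in the labels. Each fluid was measured in 1 small RNA library, so fluids are compared as single libraries, with no p-value, and the 95% intervals hold only the error of counting. The number of animals behind a library, and whether they were shared, was not stated in the labels. The libraries held from 26522 miRNA counts in urine to 2284926 in semen, with 473168 in serum, 1153755 in plasma and 1673239 in bile. Every deposited count was 0 or at least 10, so a value listed at 0 stands for 0 to 9 reads. As a check on the fluid labels, the liver miRNA miR-122 was highest in bile in CPM, at 54673 against 10259 in plasma. That order depended on the library total. With DESeq2 size factors plasma was above bile, at 11836 counts on a total of 231783 against 91481 on 2228262. A second miRNA, miR-34c, known from male germ cells, was listed in semen alone. Its level in semen was 264 CPM, which could not have been listed in urine, where 10 counts are 377 CPM. The red blood cell miRNA miR-451 stood at 84805 CPM in serum, 4139 in plasma, 4675 in urine and 4121 in bile, and was listed at 0 in semen. Serum was also highest for miR-486, another red blood cell miRNA, with 17286 CPM, and the plasma level was 1655 CPM. Unlike miR-451, it was far lower in bile than in plasma, with 39.4 CPM. Semen had 5.25 CPM of miR-486, and urine, where 10 counts are 377 CPM, listed it at 0. The part of either miRNA in the let-7 values was not tested.

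let-7 was among the earliest miRNAs described, as a regulator of developmental timing in the worm. In mammals the mature let-7 RNAs are abundant in differentiated tissues and repress growth-related targets such as RAS genes, HMGA2 and LIN28, while the LIN28 proteins block their maturation in stem cells. miR-98 shares the let-7 seed, the short stretch near the 5′ end that chooses targets, and so do the 5p forms of all the let-7 names. let-7d-3p comes from the opposite strand of the let-7d hairpin and has another seed. The mature forms of let-7a, let-7c, let-7e and let-7f differ so little that reads of one can be counted for another. The labels do not say how the authors treated such reads, so values of these 4 are uncertain.

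In the RefSeq gene table of assembly Sscrofa11.1, used only for names and neighbours, 10 let-7 and miR-98 genes lay at 7 places. let-7a and let-7f each had a pair of genes. MIRLET7A-2 and MIRLET7F-2 lay beside MIRLET7D, and MIRLET7F-1 beside MIR98. MIRLET7A-1 lay between MIR125B-1 and MIR100, MIRLET7C beside MIR99A, and MIRLET7E between MIR125A and MIR99B. MIRLET7G and MIRLET7I had no family gene or miR-99, miR-100 or miR-125 gene within 100000 bases. A mature let-7a or let-7f count can therefore come from more than 1 gene.

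The family as a whole was a main constituent of the miRNA counts in every fluid but plasma. Its 9 members summed to 362981 counts in bile, 98467 in serum, 3271 in urine, 237512 in semen and 5963 in plasma. That is 21.7% of the miRNA counts in bile (95% interval 21.6 to 21.8), 20.8% in serum (20.7 to 20.9), 12.3% in urine (11.9 to 12.7), 10.4% in semen (10.36 to 10.43) and 0.517% in plasma (0.504 to 0.530). Neighbours in this order differed beyond counting error, bile and serum by 1.04 times (1.04 to 1.05) and urine and semen by 1.19 times (1.15 to 1.23). The step from semen to plasma was 20.1 times (19.6 to 20.6). The family sum exceeded the most abundant single miRNA outside the family in serum, where miR-148a-3p held 18.1%. It stayed below the leading miRNA of the other fluids, which was miR-148a-3p in semen and bile, miR-30a-5p in urine and miR-378 in plasma.

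Plasma was the lowest fluid whenever miRNA counts set the scale, but the size of the gap depended on the scale. With TMM library sizes the family level was 2.60% in plasma against 5.54% in urine, the next lowest, and with DESeq2 size factors it was 2.57% against 7.42%. Without the 3 miRNAs that dominate plasma (miR-378, miR-320 and miR-423-5p) in the totals, plasma held 3.21% and semen, then next lowest, 10.4%. Bile was highest under all 6 totals tried, at 21.7% against 21.6% for serum without those 3 miRNAs. That last gap was within counting error. The authors' RPM uses a library total larger than the miRNA sum. On it the order was another: bile 34389, semen 21988, serum 9295, plasma 827 and urine 303. There the urine library, in which miRNAs took 0.246% of that total, was below plasma, and serum was below semen. The rank of semen against urine also changed, since semen was above urine with TMM, DESeq2 size factors and totals without the most abundant miRNA.

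**Figure D1:**
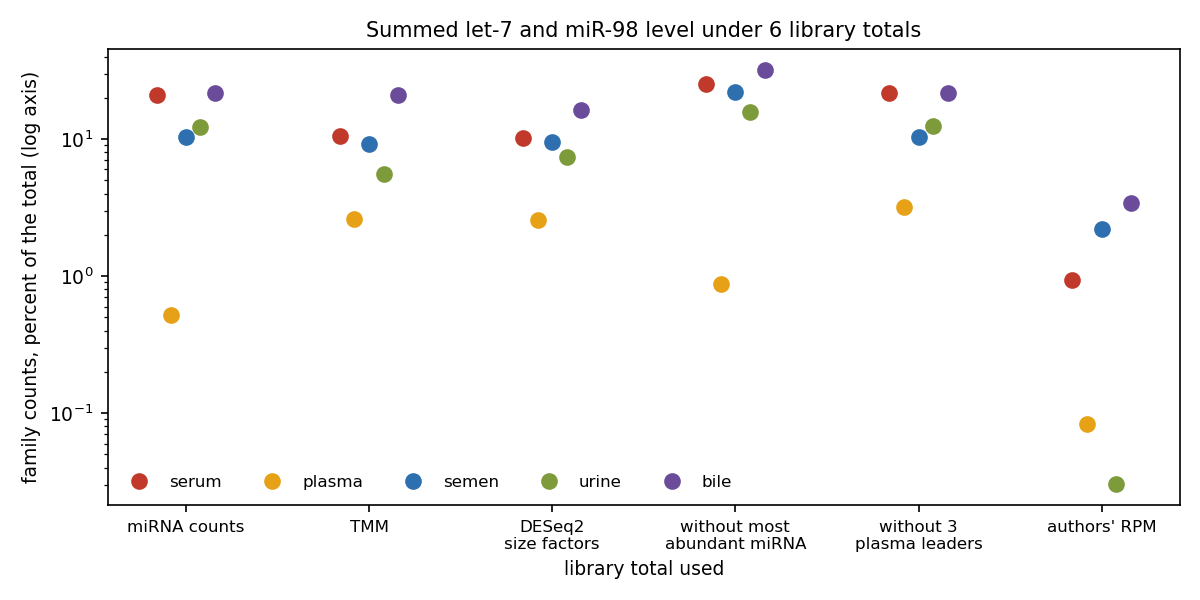
Summed let-7 and miR-98 counts of each fluid as a percent of 6 library totals, on a log axis, with 1 point per library. Plasma is lowest under the first 5 totals (0.517% to 3.21%), urine is lowest on the authors' RPM, and bile is highest under all 6. Without the 3 plasma leaders, bile and serum are level within counting error.

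A set of 5 members carried nearly all of the family. let-7a, let-7c, let-7f, let-7g and let-7i together took 98.5% of the family's counts in bile, 98.3% in serum, 98.1% in plasma, 97.8% in semen and 97.7% in urine. miR-98, let-7d-5p, let-7e and let-7d-3p shared the remainder.

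let-7i was the leading member of plasma, semen and bile, and second in serum and urine. It had 25997 counts in serum, 140655 in bile, 78629 in semen, 916 in urine and 2380 in plasma. Those counts correspond to 54942 CPM in serum (counts scaled to a miRNA total of 1000000), 84062 in bile, 34412 in semen, 34537 in urine and 2063 in plasma. Bile was highest under all 6 totals and plasma lowest under all but the authors' RPM, while in CPM urine and semen did not differ beyond counting error (1.004 times, 0.939 to 1.07). let-7i was also the steadiest member relative to the family, from 26.4% of the family's counts in serum to 39.9% in plasma, a range of 1.51 times.

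let-7g led in serum. Its counts were 27591 in serum, 72407 in bile, 24624 in semen, 698 in urine and 976 in plasma, which is 58311, 43274, 10777, 26318 and 846 CPM in the same order. All 5 levels were apart beyond counting error, in the order serum, bile, urine, semen and plasma. Bile was above serum on some other totals: 4.20% against 2.97% of the total with TMM, 3.25% against 2.85% with DESeq2 size factors and 0.686% against 0.260% on the authors' RPM. Serum stayed above bile without the most abundant miRNA in the totals, at 7.12% against 6.37%. The same held without miR-378, miR-320 and miR-423-5p, at 6.07% against 4.34%. let-7g and let-7i come from genes with no family, miR-99, miR-100 or miR-125 gene nearby, and their balance changed between fluids. let-7i counts were 3.19 times those of let-7g in semen (3.15 to 3.24), 2.44 times in plasma (2.26 to 2.63), 1.94 times in bile (1.93 to 1.96), 1.31 times in urine (1.19 to 1.45) and 0.942 times in serum (0.926 to 0.958).

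let-7f was first in urine, with 986 counts against 916 of let-7i, a lead that counting error did not resolve (1.08 times, 0.983 to 1.18). It had 24037 counts in serum, 468 in plasma, 35185 in semen and 85541 in bile. In CPM, let-7f stood at 50800 in serum, 51123 in bile, 15399 in semen, 37177 in urine and 406 in plasma. Serum and bile were level within counting error in CPM (1.01 times, 0.992 to 1.02), but not with TMM, where bile held 4.97% and serum 2.59%. In CPM the distance between bile and plasma, 126 times (115 to 138), was the widest estimate between any 2 fluids for any member. Counting error did not separate it from serum over plasma for let-7f, 125.2 times (114 to 138). The interval of let-7e for urine over plasma, 80.3 times (39.3 to 172), also held it.

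let-7a was the member that leaned to semen. It had 8340 counts in serum, 29416 in bile, 53595 in semen, 338 in urine and 348 in plasma. The levels were 17626 CPM in serum, 17580 in bile, 23456 in semen, 12744 in urine and 302 in plasma. Semen was highest under all 6 totals, and serum and bile were level in CPM (1.003 times, 0.978 to 1.03). Within the family, let-7a took 22.6% of the counts in semen and 5.84% to 10.3% in the other fluids.

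let-7c was the member with the smallest deficit in plasma among the 5 abundant ones. Its counts were 10827 in serum, 29376 in bile, 40221 in semen, 259 in urine and 1678 in plasma, or 22882, 17556, 17603, 9765 and 1454 CPM in the same order. In CPM serum was highest, and semen and bile were level (1.003 times, 0.988 to 1.02). Serum stayed highest without miR-378, miR-320 and miR-423-5p in the totals, at 2.38%, but not on the other totals. With TMM it held 1.17% against 1.57% in semen and 1.71% in bile. The values were 1.12% against 1.60% and 1.32% with DESeq2 size factors, and 0.102% against 0.372% and 0.278% on the authors' RPM. Without the most abundant miRNA in the totals, semen (3.73%) was also above serum (2.79%). Urine was below plasma with TMM, at 0.439% against 0.733%, with DESeq2 size factors, at 0.588% against 0.724%, and on the authors' RPM. let-7c took 28.1% of the family in plasma (27.0 to 29.3), 16.9% in semen, 11.0% in serum, 8.09% in bile and 7.92% in urine.

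**Figure D2:**
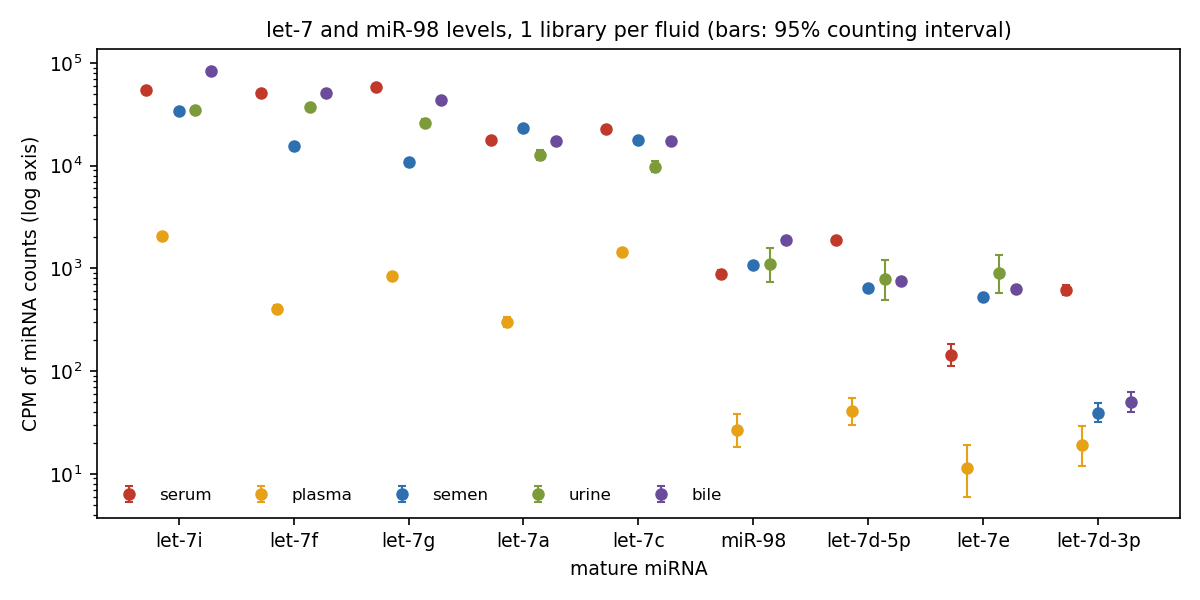
Level of each member in CPM of miRNA counts, on a log axis, with 1 point per fluid and bars for the 95% counting interval; let-7d-3p was listed at 0 in urine and has no point there. On this scale plasma lies lowest for every member with a point, from 11.3 CPM for let-7e to 2063 CPM for let-7i; for let-7c and let-7d-3p it does not with TMM.

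miR-98, which carries the let-7 seed under another name, held from 0.423% of the family in serum to 1.04% in semen. Counting error did not separate serum from plasma (1.23 times, 0.823 to 1.77) or semen from urine (1.18 times, 0.817 to 1.76). It had 417 counts in serum, 3176 in bile, 2476 in semen, 29 in urine and 31 in plasma. At 1898 CPM bile was highest, as under all 6 totals, urine (1093 CPM) and semen (1084 CPM) were level, serum had 881 CPM and plasma 26.9. As a share of the family, miR-98 was 2.07 times higher in bile than in serum (1.86 to 2.29), against 0.965 times (0.952 to 0.979) for let-7f, made in part beside it. Counts of let-7f were 57.6 times those of miR-98 in serum (52.3 to 63.7), 34.0 times in urine (23.5 to 51.0), 26.9 times in bile (26.0 to 27.9), 15.1 times in plasma (10.5 to 22.5) and 14.2 times in semen (13.6 to 14.8).

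let-7e was scarce in blood. It had 68 counts in serum, 1058 in bile, 1213 in semen, 24 in urine and 13 in plasma. Its CPM was 144 in serum, 632 in bile, 531 in semen, 905 in urine and 11.3 in plasma. In CPM both blood fluids were below the other 3, whereas on the authors' RPM urine was below serum. Urine and bile did not differ beyond counting error (1.43 times, 0.913 to 2.14). As a share of the family, let-7e was 4.22 times higher in bile than in serum (3.30 to 5.48), against 0.957 times for let-7a, 0.965 times for let-7f and 0.736 times for let-7c. That share ranged 10.6 times, from 0.0691% in serum to 0.734% in urine, and urine and semen were not resolved (1.44 times, 0.917 to 2.15).

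In CPM both arms of let-7d were highest in serum. On the authors' RPM this held for the 3p arm, but the 5p arm was at 84.7 in serum, 137 in semen and 120 in bile. The 5p arm, which carries the let-7 seed, had 897 counts in serum, 1268 in bile, 1479 in semen, 21 in urine and 47 in plasma. Its level was 1896 CPM in serum, 792 in urine, 758 in bile, 647 in semen and 40.7 in plasma. Urine and bile were not resolved (1.04 times, 0.644 to 1.60). The 3p arm had 293 counts in serum, 22 in plasma, 90 in semen and 84 in bile, which is 619, 19.1, 39.4 and 50.2 CPM, and was listed at 0 in urine. Semen and bile were not resolved for the 3p arm (1.27 times, 0.935 to 1.74).

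The balance of the let-7d arms differed between the blood fluids on one side and semen and bile on the other. Counts of the 5p arm were 3.06 times those of the 3p arm in serum (2.68 to 3.51) and 2.14 times in plasma (1.26 to 3.72), but 16.4 times in semen (13.3 to 20.6) and 15.1 times in bile (12.1 to 19.1). The intervals of serum and plasma overlapped, as did those of semen and bile, and each blood interval lay below both others. The 3p arm thus made up 24.6% of let-7d counts in serum and 6.21% in bile. In urine, 21 counts of the 5p arm against a listed 0 gave no ratio. Shifts of this size were also seen in other miRNAs listed with both arms. Among 15 others listed in serum, semen and bile, 4 moved at least as far as let-7d towards the 5p arm from serum to bile, and 1 did so from serum to semen. The median shift of those 15 was 0.72 on the log2 scale to bile and 0.24 to semen, against 2.30 and 2.42 for let-7d. No other family member was listed with both arms.

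**Figure D3:**
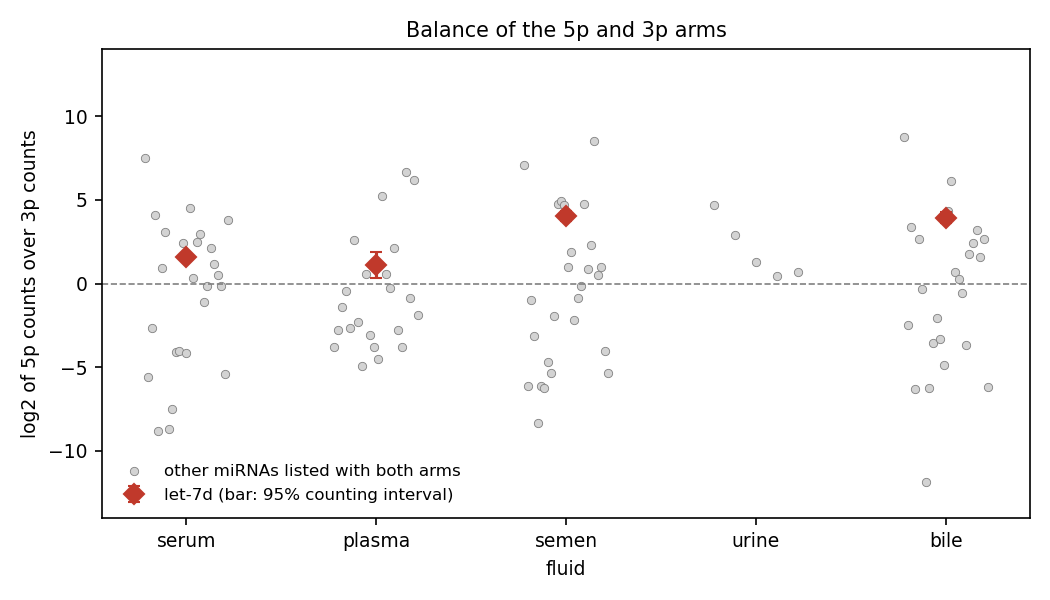
log2 ratio of 5p to 3p counts in each fluid for let-7d (diamonds, with 95% counting intervals) and for every other miRNA listed above 0 on both arms (grey points). let-7d lies at 1.61 in serum, 1.10 in plasma, 4.04 in semen and 3.92 in bile, within the spread of the other miRNAs in each fluid, and has no ratio in urine.

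The plasma deficit of the members was next set beside that of all miRNAs, using a 2-fold difference in CPM among names with at least 100 counts in either library. All 4 comparisons share the plasma library. Of 8 members tested between serum and plasma, 8 were at least 2-fold higher in serum, where 73.1% of all 119 tested names were. Against semen 8 of 8 members were higher in semen (55.3% of all 141 names), against bile 8 of 8 were higher in bile (60.3% of 141), and against urine 5 of 5 were higher in urine (58.2% of 91). let-7e missed the minimum in serum and plasma, let-7d-3p in semen and bile against plasma, and let-7d-5p, let-7d-3p, let-7e and miR-98 in urine and plasma. Because let-7d-5p, let-7d-3p, let-7e and miR-98 had under 100 plasma counts, they could pass only through the fluid where they were higher. Only let-7a, let-7c, let-7f, let-7g and let-7i had 100 counts in plasma too. Those 5 were all higher in serum, semen, urine and bile, where the shares of names with 100 counts in both libraries were 77.1%, 46.4%, 90.5% and 55.0%. For urine and for serum such a result was thus common among all miRNAs.

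The sizes differed more than the counts. The median log2 difference of those 5 members was 5.87 for serum over plasma, against 2.63 for the 70 names with 100 counts in both. For semen it was 4.06 against 0.81 over 56 names, for bile 5.68 against 1.30 over 60 names, and for urine 4.96 against 4.07 over 21 names. With ratios taken relative to the median of each pair of libraries, 5 of these 5 members were at least 2-fold higher than in plasma in serum, in semen and in bile, where 31.4%, 39.3% and 38.3% of the names with 100 counts in both were. In urine 3 of 5 were, beside 47.6% of those names. With TMM, 4 of 5 members were higher in serum (18.6% of the names), 5 in semen (28.6%), 5 in bile (23.3%) and 3 in urine (47.6%). On the authors' RPM 0 of the 5 were higher in urine (19.0% of the names) and 3 were at least 2-fold lower there (57.1%).

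The size of the plasma deficit differed between members. In serum relative to plasma, let-7f was 125.2 times higher (114 to 138), let-7g 68.9 times (64.7 to 73.5), let-7a 58.4 times (52.5 to 65.2), let-7i 26.6 times (25.5 to 27.8) and let-7c 15.7 times (14.9 to 16.6). The intervals of let-7g and let-7a overlapped, and the other steps were beyond counting error. This order holds under any library total, because a total moves all members alike. let-7f was again the most and let-7c the least distant of those 5 between plasma and bile, at 126 and 12.1 times, and between plasma and urine, at 91.7 and 6.71 times. Between plasma and semen let-7a was the most distant at 77.8 times (70.0 to 86.7), and let-7c at 12.1 times (11.5 to 12.7) and let-7g at 12.7 times (11.9 to 13.6) the least.

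Semen was also set beside serum and bile. Of 9 members tested, 4 were at least 2-fold higher in serum than in semen (51.1% of all 141 names) and 1 was lower. let-7d-3p, higher at 15.7 times, and let-7e, lower at 0.271 times, had 100 counts only in the fluid where they were higher. Of the 7 members with 100 counts in both, 3 were higher in serum, let-7g at 5.41 times, let-7f at 3.30 and let-7d-5p at 2.93, and 0 were lower, where 54.8% of such names were higher. The balance depended on the total. With TMM 2 of the 9 were higher (44.0% of all 141 names) and 3 lower. On the authors' RPM 1 was higher (32.6%) and 5 lower. Of the 7 with 100 counts in both, 2 were lower with TMM (23.3% of such names) and 4 on the authors' RPM (47.9%). Of 8 members tested, 3 were at least 2-fold higher in bile than in semen (37.7% of all 138 names): let-7g at 4.02 times, let-7f at 3.32 and let-7i at 2.44. On miRNA counts the shares of members were near the background, so they show nothing particular to the members. What did not depend on a total was the balance within each library: let-7g and let-7f were 0.459 and 0.656 times let-7a in semen, and 2.07 to 3.31 and 1.34 to 2.92 times let-7a in the other fluids.

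Composition was compared as each member's share of the family's own counts, which does not depend on the library total. In serum the order was let-7g (28.0%), let-7i (26.4%), let-7f (24.4%), let-7c (11.0%) and let-7a (8.47%). In bile it was let-7i (38.75%), let-7f (23.6%) and let-7g (19.9%), with let-7a and let-7c tied at 29416 and 29376 counts. Urine had let-7f (30.1%), let-7i (28.0%), let-7g (21.3%), let-7a (10.3%) and let-7c (7.92%). Semen had let-7i (33.1%), let-7a (22.6%), let-7c (16.9%), let-7f (14.8%) and let-7g (10.4%), and plasma let-7i (39.9%), let-7c (28.1%), let-7g (16.4%), let-7f (7.85%) and let-7a (5.84%). Serum, urine and bile therefore shared let-7f, let-7g and let-7i as their leading members, semen had let-7a and plasma let-7c in second place.

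**Figure D4:**
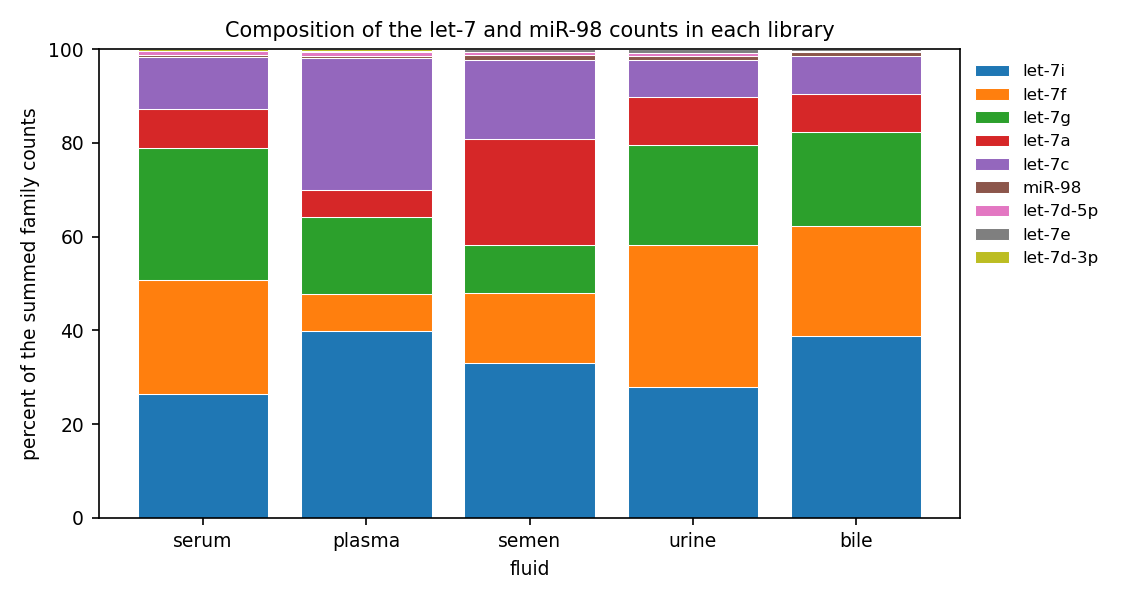
Share of each member in the summed let-7 and miR-98 counts of each library, in percent, stacked to 100. let-7c is widest in plasma (28.1%), let-7a in semen (22.6%), let-7g in serum (28.0%) and let-7f in urine (30.1%).

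The distance between compositions, the share of the counts that would have to change names to turn one into the other, was smallest for serum and urine (10.3 percentage points), urine and bile (10.9) and serum and bile (13.0). The other 7 pairs, each with plasma or semen, ranged from 22.0 for plasma and bile to 32.6 for plasma and urine. Serum and plasma were 31.0 points apart, although both come from blood. Much of the plasma distance lay in the split among the near-identical members. With let-7a, let-7c, let-7e and let-7f summed as 1, their joint share was 43.9% in serum, 40.1% in bile, 54.8% in semen, 49.1% in urine and 42.0% in plasma. Plasma and bile were then 3.94 points apart, the least of the 10 pairs, serum and plasma 13.7, and serum and semen 18.2, the most.

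The ratio of let-7c to let-7a counts was 4.82 in plasma (4.29 to 5.43), 1.30 in serum (1.26 to 1.34), 0.999 in bile (0.983 to 1.01), 0.766 in urine (0.649 to 0.904) and 0.750 in semen (0.741 to 0.760). Plasma stood apart, and urine and semen overlapped. The ratio of let-7f to let-7a was nearly the same in urine (2.92), bile (2.91) and serum (2.88), with overlapping intervals, and lower in plasma (1.34, 1.17 to 1.55) and semen (0.656, 0.648 to 0.665).

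The miR-99, miR-100 and miR-125 names, whose genes lie beside let-7 genes, numbered 5 and were listed in every fluid. Together they held 5.17% of the miRNA counts in serum, 3.15% in bile, 5.16% in semen, 4.56% in urine and 0.712% in plasma. miR-99a made up most of these sums, with 23134 of 24475 counts in serum. In CPM the sum was lowest in plasma, but with TMM it was 3.59% in plasma against 2.05% in urine, and miR-100 was lowest in semen, at 349 CPM against 1112 in plasma. The family's counts were 6.89 times theirs in bile, 4.02 in serum, 2.71 in urine, 2.02 in semen and 0.726 in plasma.

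Neighbouring genes did not keep a fixed ratio of mature counts. let-7c stood at 0.693 times its neighbour miR-99a in bile (0.682 to 0.703), 0.468 in serum (0.457 to 0.479), 0.356 in semen (0.352 to 0.360), 0.245 in plasma (0.232 to 0.259) and 0.238 in urine (0.207 to 0.273). Plasma and urine overlapped, and the other steps were beyond counting error. let-7e was 1.48 times its neighbour miR-99b in bile (1.34 to 1.63), 0.907 in serum (0.643 to 1.28) and 0.729 in semen (0.677 to 0.786), followed by 0.667 in urine (0.380 to 1.15) and 0.210 in plasma (0.106 to 0.385). Against miR-125a, on the other side of its gene, let-7e stood at 3.89 in bile (3.40 to 4.46), 2.52 in serum (1.59 to 4.09), 1.29 in semen (1.18 to 1.40), 1.08 in plasma (0.456 to 2.60) and 0.774 in urine (0.435 to 1.36). Bile had the highest value of all 3 ratios, with serum next, but not every step was resolved. For let-7e over miR-99b the interval of serum overlapped those of semen and urine. For let-7e over miR-125a it overlapped those of bile and plasma. let-7a over miR-100 had the widest range, from 0.271 in plasma (0.240 to 0.306) to 67.2 in semen (62.7 to 72.2), with 3.41 in bile, 7.62 in serum and 10.2 in urine. let-7a over miR-125b lay between 14.7 in urine (9.63 to 23.5) and 57.5 in serum (48.8 to 68.3). Since a second let-7a gene lies elsewhere, these last 2 ratios do not compare products of 1 place in the genome.

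**Figure D5:**
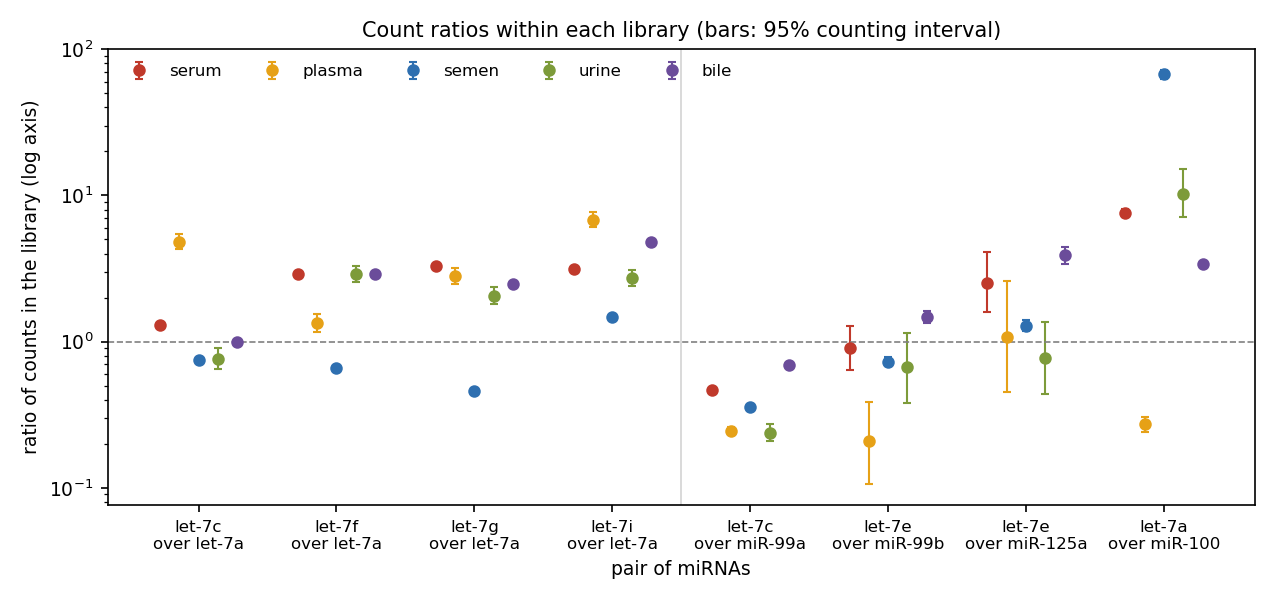
Ratios of counts within each library, on a log axis, for pairs of family members (left of the grey line) and for members against miRNAs of neighbouring genes (right), with 95% counting intervals. let-7c over let-7a is highest in plasma (4.82), the ratios to let-7a of let-7f, let-7g and let-7i are lowest in semen, and let-7c over miR-99a and let-7e over miR-99b are highest in bile.

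The profile of the family sum over the 5 fluids was compared with that of single miRNAs by the root mean square difference of log2 CPM after centring each profile, a measure that no library total changes. Among 59 other miRNAs with at least 10 counts in all 5 libraries and at least 100 in 1, the median difference was 1.85. The closest 5 were miR-103 at 0.72, miR-182 at 0.74, miR-30b-5p at 0.86, miR-30e-3p at 0.88 and miR-101 at 0.88. Even for miR-103 the ratio of the family to the miRNA varied 3.81 times over the fluids. Of the 8 members that could be compared, 7 lay closer to the family sum than miR-103. The 5 abundant members make up the sum, but let-7d-5p at 0.47 and miR-98 at 0.50 hardly enter it. let-7e, at 1.17, was the member farthest from it. Without the urine library 92 other miRNAs could be compared, names not listed in urine among them. In that wider set miR-30e-3p (0.34) and miR-30b-5p (0.38) were the closest, and miR-182 and miR-101 left the first 5.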

How the data were processed

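The authors deposited, per fluid, a table of 411 mature miRNA names with a read count, and a normalized column. Per the file headers and values, that column is RPM: count divided by RPM gave 1 constant per library, which the authors computed on a total larger than the miRNA sum. The submitters' processing notes name bcl2fastq 2.17 and build Sscrofa10.2. For the aligner, the annotation and reads that match several names, no statement is given in the sources used here. The protocol names no molecular identifiers, and the labels name different sequencing instruments. CPM and family shares were computed from the counts, with exact Clopper-Pearson 95% intervals, and ratios with exact conditional binomial intervals (scipy 1.17.1), tested on simulated data. For the 2-fold comparisons a listed 0 entered as 10 counts, and ratios with an interval were not formed from a listed 0. With 1 library per fluid no test was run. TMM (edgeR 4.0.16) and DESeq2 1.42.0 size factors served as alternative library totals only, as did totals without leading miRNAs and the authors' RPM. All 9 members, the 5 neighbours and the 5 closest profiles were named by rule. The members and lists were chosen with earlier results of these data known. Mature sequences were not used here.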

Additional observations from a re-analysis of the deposited data

How the results depend on the processing

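No paired analysis was possible because each fluid has 1 library. No replicate could be left out for the same reason. The family level, in percent of the total in serum, plasma, semen, urine and bile, was 10.6, 2.60, 9.27, 5.54 and 21.1 with TMM, 10.2, 2.57, 9.46, 7.42 and 16.3 with DESeq2 size factors, and 25.4, 0.882, 22.0, 15.8 and 31.9 without the most abundant miRNA of each library. On the authors' RPM it was 0.930, 0.0827, 2.20, 0.0303 and 3.44. Without miR-378, miR-320 and miR-423-5p it moved beyond counting error in serum (21.6) and plasma (3.21). It stayed within its interval in all 5 fluids without let-7d-3p. The number of members at least 2-fold higher in urine than in plasma was 5 as reported. It was 3 with TMM and relative to the median of the pair (17.6% of all 91 names in both) and 0 on the authors' RPM (9.89%). With a minimum of 20 counts or none it was 9, where all 9 were tested. Of all names, 75.5% of 155 and 77.9% of 172 were then higher in urine. One of those 9, let-7d-3p, is listed at 0 in urine and counted only because a listed 0 enters as 10 counts. For serum, semen and bile over plasma the number went from 8 to 5 with 100 counts required in both libraries, where 5 members were tested. The shares of such names were 77.1%, 46.4% and 55.0%. For serum over semen the number was 4 as reported. It was 2 with a 4-fold limit (40.4% of all 141 names), with TMM (44.0%) and with DESeq2 size factors (42.6%). Without the most abundant miRNA in the totals it was also 2 (44.0%). It was 1 on the authors' RPM (32.6%) and relative to the median of the pair (36.9%). The members at least 2-fold lower in serum than in semen went from 1 to 3 with TMM, DESeq2 size factors and totals without the leading miRNA, 4 relative to the median and 5 on the authors' RPM. Of the 7 members with 100 counts in both, 0 were lower in CPM, beside 9.59% of 73 names. There 2 were lower with TMM (23.3%), with DESeq2 size factors (24.7%) and without the leading miRNA (23.3%). Relative to the median 3 were (35.6%), and on the authors' RPM 4 (47.9%). For bile over semen the number of members higher in bile, 3 as reported, was 1 at 4-fold (23.9% of 138 names). It was 2 without the most abundant miRNA in the totals (29.0%) and on the authors' RPM (30.4%). The family's log2 ratio reversed on the authors' RPM for urine over plasma (-1.45) and serum over semen (-1.24), and relative to the median of the pair for serum over semen (-0.44). Apart from the numbers of members tested, the cause was not tested. The alternatives chosen after seeing the data were 100 counts in both libraries, the totals without 3 miRNAs for the counts of members, the highest and lowest fluid under each total, the family ratios and the summing of near-identical members for the distances. Depth limits urine most: 10 counts there are 377 CPM, and miR-98, let-7e and let-7d-5p rest on 21 to 29 counts, as they rest on 13 to 47 in plasma.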
